A study of Mus musculus with 10 samples.

Results

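Astrocyte marker genes were examined in cultured oligodendrocyte precursor cells (OPCs), which divide and give rise to myelinating oligodendrocytes. The set holds 10 genes, chosen by symbol, and all 10 are among the 19333 genes of the authors' deposited table for these cultures. They are Gfap, Aqp4, Aldh1l1, Aldoc, Slc1a2, Slc1a3, S1pr1, Gja1, Sox9 and Nfia. The table compares 3 libraries from Olig2-Cre:Apc-fl/fl mice with 3 from Apc-fl/fl littermates, here called Apc-deleted and wild type. Both genotypes carry the floxed Apc alleles, and the Cre recombinase is driven by Olig2, a gene of the oligodendrocyte lineage that some other neural progenitors also use. The OPCs were purified on antibody-coated dishes and grown with the mitogen PDGFAA for 3 days before RNA was taken, and no label gives the age of the mice. The series also holds 4 libraries of cells sorted from spinal cord at day 18 of EAE (experimental autoimmune encephalomyelitis, which models multiple sclerosis) in Pdgfra-CreER:Apc-fl/fl mice. CreER needs tamoxifen to act, and whether these mice received it is not in the labels. Of the 4 libraries 3 came from CD11b+Gr-1+NK1.1+ cells, named cytotoxic macrophages by the submitters, and 1 from CD4+ cells labelled Th1.

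Astrocytes and OPCs descend from related neural progenitors, and OPCs can take on astrocyte features when exposed to bone morphogenetic proteins or serum in culture. Sox9 and Nfia encode transcription factors that start glial development and are also found in precursor cells. The remaining genes encode the working parts of mature astrocytes, such as glutamate transporters, a water channel, a gap junction protein and an intermediate filament. The Apc protein helps to mark beta-catenin for degradation, so its loss releases Wnt signalling. The comparison asked whether astrocyte transcripts differ between Apc-deleted and wild-type cultures, as a switch from OPC to astrocyte fate would require.

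The authors' deposited table gives 1 mean and 1 fold change per gene and no value per library, so neither a spread over libraries nor their depth can be shown. No source used here says that the libraries came from separate animals, so p-values reflect the variation among these libraries alone, part or all of which could be technical. The table does not say which genotype is the numerator. Signs are given as Apc-deleted over wild type by reading the Wnt feedback genes Notum, Sp5, Lef1 and Axin2 as higher in Apc-deleted cultures, for which these 4 genes are no independent evidence. In the file these genes have negative values, so the sign of every deposited fold change was reversed. Each log2 fold change credited here to the authors' deposited table has the deposited size and the opposite sign, so that Gfap, given here as -0.08, is positive in the file. In a bulk culture, fewer cells of a type and less RNA per cell cannot be told apart.

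Promoter sequences of 4 genes are shown for the pathways in question. RefSeq promoter windows on GRCm38.p6, from 250 bases before to 50 after a start site, were at hand for 7 of the 10 markers. Windows were searched on both strands for CTTTGAT and CTTTGAA, forms of the site of the TCF/LEF factors that partner beta-catenin, and for TTCNNNGAA, the site of the STAT factors through which cytokines induce Gfap. Gfap, Slc1a3 and Aldoc are shown as the markers whose windows held a STAT match, none of which held either TCF/LEF form. Sp5 is shown as a Wnt feedback gene that holds a TCF/LEF match. Windows of the feedback genes Lef1 and Axin2 were also searched and held neither TCF/LEF form, and no window was at hand for Notum. Capitals mark the match, and each sequence runs 5′ to 3′ on the gene's strand.
Gfap, minus strand, chr11:102897194-102897450: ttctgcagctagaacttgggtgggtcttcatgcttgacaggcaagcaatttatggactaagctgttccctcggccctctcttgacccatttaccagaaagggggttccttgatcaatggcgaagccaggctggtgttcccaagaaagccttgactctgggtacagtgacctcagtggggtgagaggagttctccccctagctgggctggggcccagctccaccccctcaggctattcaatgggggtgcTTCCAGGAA
Slc1a3, minus strand, chr15:8710808-8711057: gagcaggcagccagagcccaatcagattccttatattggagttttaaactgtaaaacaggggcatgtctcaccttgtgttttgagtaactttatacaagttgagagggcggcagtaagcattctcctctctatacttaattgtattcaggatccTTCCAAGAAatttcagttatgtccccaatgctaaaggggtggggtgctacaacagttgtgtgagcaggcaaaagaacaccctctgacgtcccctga
Aldoc, plus strand, chr11:78323948-78324197: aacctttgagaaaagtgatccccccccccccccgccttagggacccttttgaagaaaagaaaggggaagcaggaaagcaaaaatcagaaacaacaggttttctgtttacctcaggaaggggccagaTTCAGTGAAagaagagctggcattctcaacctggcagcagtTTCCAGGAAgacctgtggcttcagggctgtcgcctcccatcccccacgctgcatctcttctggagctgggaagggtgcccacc
Sp5, plus strand, chr2:70474673-70474922: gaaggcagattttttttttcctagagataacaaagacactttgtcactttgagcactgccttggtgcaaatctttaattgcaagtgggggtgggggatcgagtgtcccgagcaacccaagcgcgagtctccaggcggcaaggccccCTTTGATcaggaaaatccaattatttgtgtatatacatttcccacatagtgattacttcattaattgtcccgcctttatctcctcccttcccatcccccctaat
The Gfap match spans the start site, beginning at position -2, that of Slc1a3 begins at -96, those of Aldoc at -124 and -83, and that of Sp5 at -104. TTCNNNGAA was present in 8.30% of all 32851 windows and in 3 of the 8 windows of the 7 markers, Aldoc having a further window without a match. CTTTGAT was present in 3.73% of all windows and in those of Slc1a2 and Nfia, the latter around a start 190791 bases from the nearest GENCODE M21 start of Nfia. CTTTGAA was present in 5.14% of all windows and in none of the markers' windows. A match describes these letters only.

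Astrocyte transcripts were abundant in the cultures. To compare genes, the mean normalized count over both genotypes was divided by exon length, which gave the level per kilobase. Aldoc, a glycolytic aldolase (ENSMUSG00000017390.15, chromosome 11, 78322968 to 78327781, GRCm38), stood highest of the markers at 2376 per kilobase, from a mean of 7753 normalized counts in the authors' deposited table. Slc1a2, the main glutamate transporter of astrocytes (ENSMUSG00000005089.15, chromosome 2, 102658659 to 102790784), followed at 2037 per kilobase, from a mean of 26753 in the authors' deposited table. These levels exceeded those of 98.5% and 98.2% of all genes.

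By exon length the next 4 markers lay between 705 and 886 per kilobase. Sox9 (ENSMUSG00000000567.5, chromosome 11, 112782224 to 112787760) stood at 886 per kilobase, and Aqp4, the water channel of astrocyte endfeet (ENSMUSG00000024411.9, chromosome 18, 15389496 to 15410982), at 786. Gfap, the intermediate filament protein by which astrocytes are most often identified (ENSMUSG00000020932.14, chromosome 11, 102887336 to 102900912), stood at 742 and Nfia (ENSMUSG00000028565.18, chromosome 4, 97772734 to 98118874) at 705 per kilobase. Their means in the authors' deposited table were 3664, 4897, 3128 and 7683 normalized counts, in the same order. Each of the 4 exceeded between 94.0% and 95.4% of all genes per kilobase. Whether neighbours in this order differ beyond their spread was not tested, since the table holds no value per library. The order also depends on the length used. Divided by the longest transcript, Gfap stood at 1181 per kilobase, above Aqp4 at 969 and Sox9 at 886, and Slc1a3 at 850 stood above Nfia at 807.

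By exon length Slc1a3, a glutamate transporter shared with radial glia (ENSMUSG00000005360.14, chromosome 15, 8634124 to 8710764), stood at 442 per kilobase. S1pr1, a sphingosine-1-phosphate receptor also known from endothelium and lymphocytes (ENSMUSG00000045092.8, chromosome 3, 115710433 to 115715072), stood at 316. Gja1, which encodes the gap junction protein connexin 43 (ENSMUSG00000050953.10, chromosome 10, 56377330 to 56402513), stood at 154, or 406 by its longest transcript, which puts it above S1pr1. Aldh1l1, a folate enzyme used as a pan-astrocyte marker (ENSMUSG00000030088.15, chromosome 6, 90486427 to 90600203), was lowest at 90.8 per kilobase, above 66.8% of all genes, and also by the longest transcript at 98.3. Its exons share 11.0% of their bases with an antisense gene, Gm15756, and since counting by strand is not stated, its reads may include some from that gene.

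Set beside other cell types, the astrocyte markers had a median of 724 per kilobase, against 35.8 over all genes. A wider list of astrocyte genes, of which 31 were measured, had a lower median of 289 per kilobase, so the level of the 10 markers does not stand for astrocyte genes in general. The OPC genes had a median of 252 per kilobase, from 87.6 for the proteoglycan gene Cspg4 to 5247 for the transcription factor gene Olig1. Pdgfra, the receptor for the mitogen in the medium, stood at 225 per kilobase, below 8 of the 10 astrocyte markers, and Olig1 stood above all 10. Neuron genes were far higher, with a median of 2016 and a maximum of 65447 per kilobase for Tubb3, a neuronal tubulin. Oligodendrocyte genes had a median of 384, with the myelin glycoprotein gene Mag highest at 1974. Microglia and macrophage genes had a median of 96.1, with the complement gene C1qa highest at 1656. All 12 listed OPC genes were measured, but the astrocyte marker, neuron and oligodendrocyte lists each had a higher median than the OPC list. Medians over lists of different genes cannot rank cell types. Sox9 and Nfia, also found in precursor cells, count among the astrocyte markers here. How many cells of each type the dishes held was not tested.

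**Figure D1:**
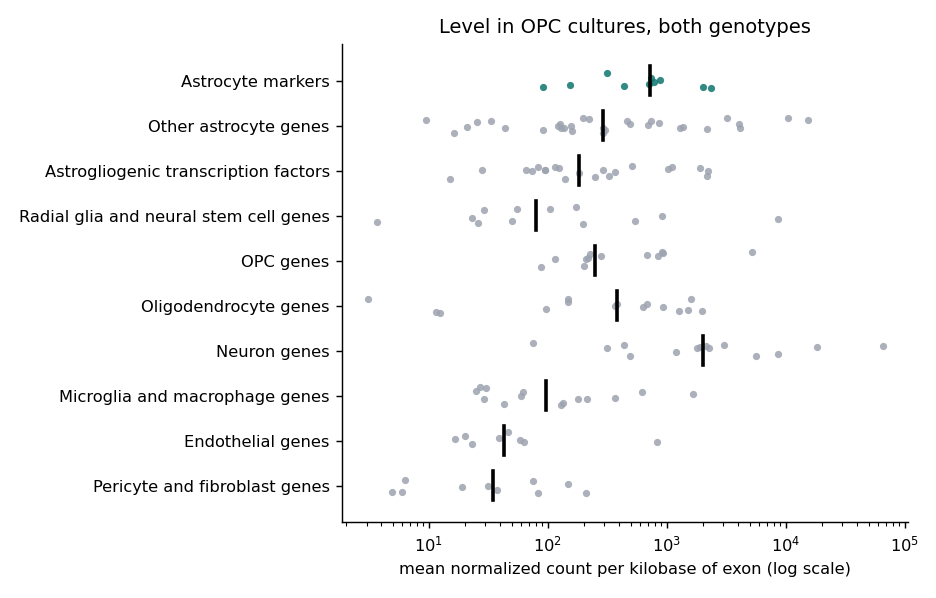
Level of each gene in the OPC cultures as the mean normalized count per kilobase of exon on a log scale, over both genotypes, by gene list. Points are genes and black bars are list medians. The 10 astrocyte markers (teal) lie between 90.8 and 2376, with a median of 724, above the OPC genes' median of 252 and below the neuron genes' median of 2016. The other astrocyte genes have a median of 289.

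In neither direction did an astrocyte marker pass the authors' deposited table at a 0.05 threshold on the adjusted p, and the test behind it is not named there. Over all 19333 genes 0.548% passed, 0.393% higher and 0.155% lower, so a count of 0 of 10 lies near the background. None of the 10 had an unadjusted p under 0.05 either, against 3.63% of all genes, and in the authors' deposited table the adjusted p of every marker was 0.999993. Of the markers 7 had values below 0 and 3 above, with a median log2 fold change of -0.050 against 0.0014 over all genes. The mean of the 10 was 0.026, of the other sign, and without Sox9 it was -0.043.

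The effector genes of mature astrocytes had values close to 0. Gfap stood at -0.08 (SE 0.15) on the log2 scale in the authors' deposited table, and its 95% interval ran from -0.37 to 0.22. Together with its mean this corresponds to about 3213 normalized counts in wild-type and 3043 in Apc-deleted cultures, taking 3 libraries of each. Aqp4 stood at -0.15 (SE 0.14), with an interval from -0.42 to 0.13, in the authors' deposited table. The upper ends of these intervals were 1.16-fold for Gfap and 1.09-fold for Aqp4.

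Both glutamate transporters were near 0. Slc1a2 stood at -0.04 (SE 0.16) and Slc1a3 at 0.07 (SE 0.11) in the authors' deposited table, with intervals from -0.37 to 0.28 and from -0.14 to 0.28. For Slc1a2 the mean and the fold correspond to about 27167 normalized counts in wild-type and 26340 in Apc-deleted cultures. The metabolic enzyme genes had the same value after rounding, with Aldoc at -0.06 (SE 0.10) and Aldh1l1 at -0.06 (SE 0.17) in the authors' deposited table. The interval of Aldoc ran from -0.26 to 0.15 and that of Aldh1l1 from -0.40 to 0.29. Gja1 stood at -0.04 (SE 0.18, interval -0.39 to 0.31) and S1pr1 at -0.16 (SE 0.14, interval -0.43 to 0.11) in the authors' deposited table, the latter being the lowest value of the 10.

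The transcription factor genes had the highest values of the set. In the authors' deposited table Nfia stood at 0.13 (SE 0.09), and its unadjusted p was 0.160. Its interval ran from -0.05 to 0.31. Its standard error was the smallest of the 10, at 0.749 times the median of the 200 genes nearest in mean level. Sox9 stood higher in the authors' deposited table, at 0.65 (SE 0.46), and its unadjusted p was 0.157. Its interval ran from -0.25 to 1.54, from 0.841-fold to 2.92-fold.

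Of the 10 markers 9 had a 95% interval that lay wholly within 1.5-fold of no change, Sox9 being the exception. The same held for 46.8% of all genes and for 90.9% of the 6472 genes with a mean of at least 400 normalized counts, so the share of the markers lies near that of genes of like level. Within 1.2-fold of no change lay the interval of 1 marker, Aldoc. For contrast, in the authors' deposited table the Wnt feedback genes that set the sign ranged from 1.01 (SE 0.20) for Axin2 to 4.90 (SE 0.49) for Notum.

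**Figure D2:**
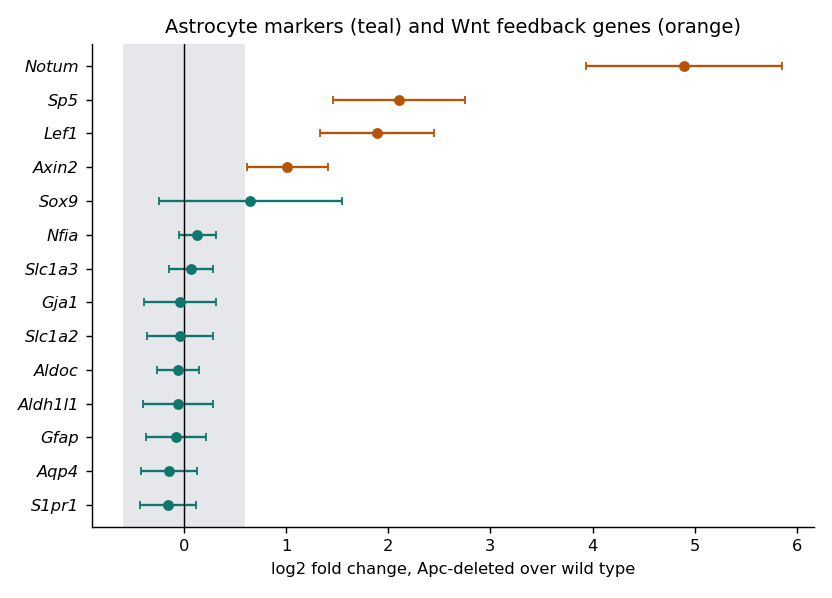
Log2 fold change of Apc-deleted over wild-type OPC cultures with 95% intervals from the deposited standard errors, for the 10 astrocyte markers (teal) and the 4 Wnt feedback genes used to set the sign (orange). The grey band marks 1.5-fold either way, and the intervals of 9 markers lie inside it while that of Sox9 runs from -0.25 to 1.54.

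The standard error of Sox9 set it apart from the other markers. It was 3.82 times the median of the 200 genes nearest in mean level, a ratio that 63 of 19333 genes exceeded, while the other 9 markers lay between 0.749 and 1.46. Among the 10451 genes with a mean of at least 100 normalized counts, 127 had a ratio above 3, a limit chosen after the values were seen. Of these 127 genes 119 had a value above 0, against 50.2% of the 10451, and their median log2 fold change was 0.66, close to that of Sox9. Of the 127 genes 6 passed the threshold in the authors' deposited table, where Nkd1, Gpnmb, Lyz2, Cxcr4 and Lgals3 rose and 4930526A20Rik fell. Among all 10451 genes 46 passed as higher and 29 as lower. Others, picked by hand after their values were seen, were Top2a, a DNA topoisomerase (0.66, SE 0.49), Birc5, a mitotic survivin (0.66, SE 0.70) and Cdk1, the mitotic kinase (0.59, SE 0.65) in the authors' deposited table. What kinds of genes the 127 hold was not tested. Hes5, a Notch target of neural progenitors, was a further one at -0.47 (SE 0.46) in the authors' deposited table. Whether libraries that differ in these genes also set the value of Sox9 was not tested, as the table gives no library's own value.

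**Figure D3:**
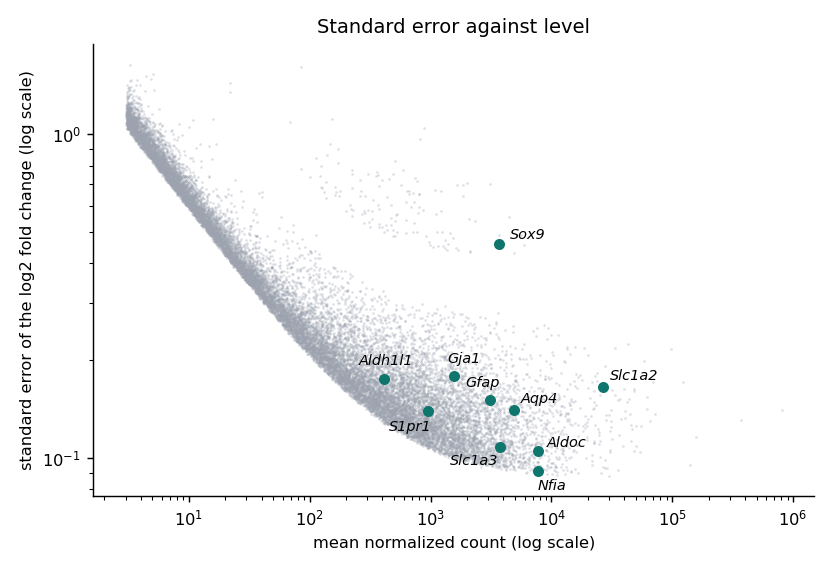
Standard error of the log2 fold change against mean normalized count, both on log scales, for all 19333 genes (grey) and the 10 astrocyte markers (teal). Sox9, with a standard error of 0.46 at a mean of 3664, lies in a detached band above the main cloud, and the other markers lie within the main cloud.

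A wider list of astrocyte genes likewise had 0 calls, with 3 of 31 genes at an unadjusted p under 0.05, a level reached by 3.63% of all genes. Of 32 listed genes 31 were measured and their values in the authors' deposited table were below 0 for 24 and above 0 for 7, with a median of -0.15. Over all genes 9607 of 19333 values were below 0. The lowest unadjusted p was 0.0123, for Dio2, a deiodinase that activates thyroid hormone, at 0.30 (SE 0.12), followed by 0.0333 for the receptor gene Gpr37l1 at -0.33 (SE 0.15) in the authors' deposited table. Lists of other cell types went either way. Of microglia and macrophage genes 12 of 14 and of ependymal genes 5 of 7 lay above 0. Of the former 7 had an unadjusted p under 0.05 (3.63% over all genes) and 2 passed (0.548% over all genes). Values below 0 were the more frequent in the oligodendrocyte list, given below, and in the neuron, endothelial, and pericyte and fibroblast lists. None of 14 neuron, 8 endothelial or 10 pericyte and fibroblast genes passed. Of the neuron genes 12 lay below 0 with a median of -0.08, of the endothelial genes 8 with a median of -0.11, and of the pericyte and fibroblast genes 7 with a median of -0.11. The neuronal migration gene Dcx stood at -0.20 (SE 0.09) in the authors' deposited table. It was the 1 gene of the neuron, endothelial, and pericyte and fibroblast lists with an unadjusted p under 0.05. Next were the neuronal enzyme gene Gad1 at 0.23 (SE 0.14), the endothelial genes Esam at -0.27 (SE 0.17) and Kdr at -0.13 (SE 0.17), and the pericyte and fibroblast genes Rgs5 at -0.22 (SE 0.13) and Dcn at -0.24 (SE 0.17) in the authors' deposited table. Whether the astrocyte lists differ from these was not tested.

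Genes upstream of astrocyte formation were mixed. None of 21 astrogliogenic transcription factor and signal transducer genes passed, 3 had an unadjusted p under 0.05 (3.63% over all genes), and 10 lay above 0, with a median of -0.03 and a mean of 0.01. Id3, an inhibitor of basic helix-loop-helix factors that bone morphogenetic proteins induce, had the lowest unadjusted p of the list, 0.0182, at -0.34 (SE 0.14) in the authors' deposited table. Smad5, a transducer of bone morphogenetic protein signals, was next with an unadjusted p of 0.0337, at 0.22 (SE 0.10) in the authors' deposited table. In the authors' deposited table Stat3 stood at 0.28 (SE 0.23). Of 22 measured cytokine and receptor genes 1 rose and 1 fell in the authors' deposited table, where 0.548% of all genes passed. By the authors' deposited table Bmp7 rose by 0.94 (SE 0.25), where the adjusted p was 0.0421, and Bmp4 fell by 0.83 (SE 0.18), where it was 0.00243. Both encode bone morphogenetic proteins. All 11 calls in the lists other than the Wnt feedback genes were lost when the statistic was referred to a t distribution with 4 degrees of freedom. That distribution has tails too heavy for any of the 19333 genes to pass after adjustment, the Wnt feedback genes included. The loss therefore does not single out these calls. The cytokine receptor genes Lifr and Il6st, which act ahead of STAT3, stood at -0.03 (SE 0.15) and -0.04 (SE 0.13) in the authors' deposited table.

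Reactive astrocyte genes did not pass as single genes either, with 0 calls among 29 measured of 36 listed, 4 of them at an unadjusted p under 0.05 (3.63% over all genes), and a median of 0.06. The lowest unadjusted p values were 0.00368 for Cd14, a lipopolysaccharide co-receptor that macrophages also express, at 1.78 (SE 0.61), and 0.00625 for Vim, an intermediate filament of astrocytes and precursors, at 0.71 (SE 0.26) in the authors' deposited table. The adjusted p were 0.346 and 0.489. Of the microglia and macrophage genes, which mostly lay above 0, Lyz2 rose by 4.33 (SE 0.96) and Cd68 by 1.54 (SE 0.36) in the authors' deposited table. Their summed level per library is not in the table, and their part in the value of Cd14 was not tested. Radial glia and neural stem cell genes had 0 of 12 passing, none at an unadjusted p under 0.05, and a median of -0.03. Prom1 stood at -0.22 (SE 0.17) and Hopx at -0.23 (SE 0.19) in the authors' deposited table. The fatty acid binding protein gene Fabp7, abundant at 8619 per kilobase, stood at -0.05 (SE 0.15) in the authors' deposited table.

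Further calls lay in the lists of the oligodendrocyte lineage. Of 12 OPC genes 3 fell and 1 rose in the authors' deposited table, where 0.548% of all genes passed. In this list 5 genes had an unadjusted p under 0.05 (3.63% over all genes), and 6 lay above 0 and 6 below. Gpr17, a receptor of committed precursors, fell by 1.16 (SE 0.15), Nkx2-2 by 1.44 (SE 0.24) and the sialidase gene Neu4 by 1.01 (SE 0.22), while the matrix gene Matn4 rose by 1.01 (SE 0.24). Of 15 oligodendrocyte genes 3 fell in the authors' deposited table, Enpp6 by 1.15 (SE 0.25), Myrf by 1.08 (SE 0.24) and Bcas1 by 0.65 (SE 0.15). Among these 15 genes 4 had an unadjusted p under 0.05. Values below 0 were found for 14 of them, with a median of -0.17, against 49.7% of all genes below 0. Ependymal genes, of which 7 of 8 were measured, had none past the threshold and a median of 0.20 from means of at most 72.3 normalized counts. Of these Dnah11 stood at 0.70 (SE 0.41) and Foxj1 at 0.53 (SE 0.37) in the authors' deposited table.

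**Figure D4:**
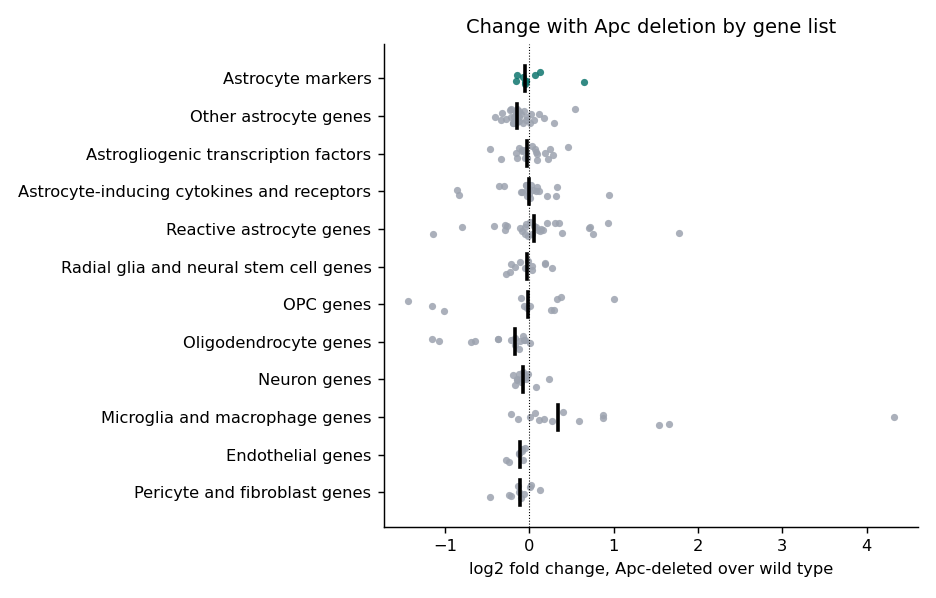
Log2 fold change of Apc-deleted over wild-type OPC cultures by gene list, with points for genes and black bars for list medians. The 10 astrocyte markers (teal) have a median of -0.05, and 9 of them lie between -0.16 and 0.13, with Sox9 at 0.65.

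In the cells sorted from EAE spinal cord the same 10 genes were low, and 3 of them did not exceed 3 reads in any library. Summed over the 10 genes, the macrophage libraries held 0.917 ± 0.015 TPM (SD, n = 3), where TPM is a length-corrected share of a library's transcripts, and the library labelled Th1 held 2.06 TPM. Of the latter sum 1.36 TPM was Gja1, the 1 gene above 3 reads in that library. In the macrophage libraries 7, 6 and 6 of the genes were above 3 reads. Depth was 23174908, 23564215 and 23474168 reads in the macrophage libraries and 3051730 in the library labelled Th1. A count of 0 therefore allows up to 0.129, 0.127 and 0.128 CPM (reads scaled to library depth) in the former and 0.983 CPM in the latter, by counting error alone.

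Aqp4 had no read in any of the 4 libraries. Gfap had 2, 0 and 1 reads in the macrophage libraries and 1 in the library labelled Th1. Sox9 had 2, 1 and 0 reads in the macrophage libraries and 3 in the library labelled Th1. None of these counts lies above 3 reads. Aqp4 was not detectable at this depth, and the reads of Gfap and Sox9 are too few to set a level.

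Of the others 6 were low but above 3 reads in each macrophage library. Aldoc had 52, 44 and 51 reads there, or 2.09 ± 0.20 CPM (SD, n = 3), and Nfia 30, 41 and 24 reads, or 1.35 ± 0.36 CPM. Slc1a3 had 24, 26 and 28 reads and S1pr1 18, 18 and 23. Slc1a2 had 6, 12 and 9 reads and Aldh1l1 5, 14 and 7. In the library labelled Th1 Aldoc had 2 reads, S1pr1 had 1, and Nfia, Slc1a3, Slc1a2 and Aldh1l1 had none. At the depth of that library 3 reads are 0.983 CPM, above the macrophage means of S1pr1 (0.84 CPM), Slc1a2 (0.38 CPM) and Aldh1l1 (0.37 CPM), so a difference in these genes was not detectable. Gja1 had 6, 2 and 2 reads in the macrophage libraries against 13 in the library labelled Th1. That is 4.26 CPM in the library labelled Th1, with an exact Poisson 95% interval of 6.92 to 22.2 reads, against 0.14 ± 0.10 CPM in the macrophage libraries (SD, n = 3). With 1 library labelled Th1, the difference was not tested and has no replicate check.

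**Figure D5:**
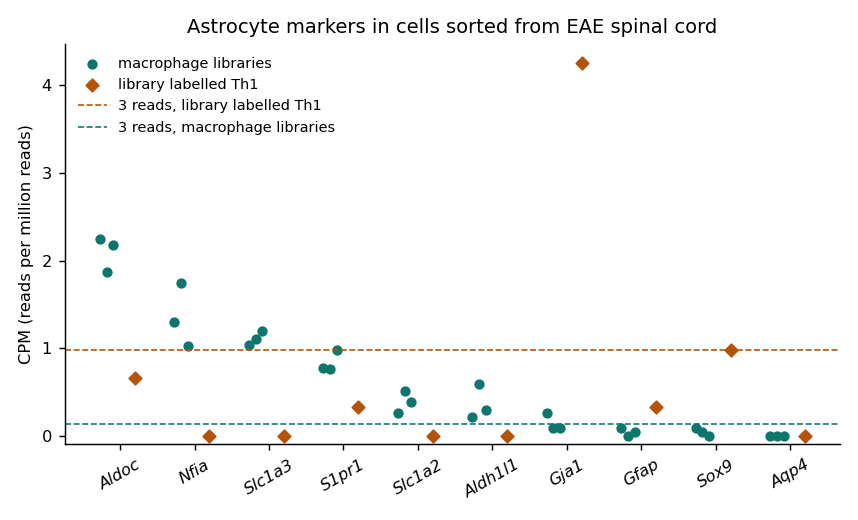
CPM of the 10 astrocyte markers in the 3 macrophage libraries (teal points) and the library labelled Th1 (orange diamonds) from EAE spinal cord, with dashed lines at 3 reads. Only Gja1 in the library labelled Th1, at 4.26, lies above 3 reads there, and Aqp4 is at 0 in every library.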

How the data were processed

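RNA sequencing covered 10 mouse libraries, with paired reads of 150 bases per the labels' protocols, on GRCm38 per the submitters' processing notes. Neither an aligner nor a counter is named in the sources used here. For OPC cultures the authors deposited 1 comparison with a mean of normalized counts (a signal averaged over libraries by the authors), log2 fold changes and their errors, a statistic (a score, the fold change over its error, as checked on the values), and a p-value with its adjusted p-value, used as deposited except that the sign of every fold change and statistic was reversed to read as Apc-deleted over wild type. The lowest deposited mean was 3.03, and a step before deposit that removed lower genes is not stated. Benjamini-Hochberg over the 19333 genes of the table changed 0 calls. Immune files hold TPM and estimated counts per the file headers, deposited by the authors, where blanks were taken as 0 and counts were rounded for intervals. In these files 8 columns of other units were not used. Macrophage columns carry codes that no label gives, so each stands for a library of its group without a number.

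Intervals are normal 95% intervals. Exon length is the union of exons in GENCODE M21, which matched 99.81% of identifiers. The design's count models could not be run for OPCs without values per library. Named genes are the 10 markers, list members past an adjusted p of 0.05 or otherwise those with the lowest unadjusted p, and the highest per kilobase of 4 lists. Others (Stat3, Lifr, Il6st, Pdgfra, Cspg4, Fabp7, Hes5, Top2a, Birc5 and Cdk1) were added after their values were seen. So were Nkd1, Gpnmb, Cxcr4, Lgals3 and 4930526A20Rik, which are in none of the lists and passed the threshold among the genes of large standard error. The members and the 14 lists were chosen with earlier results of these data known. Adjustment and error ratios were tested on simulated data. Alternatives covered the set of genes adjusted over, the reference distribution, the centring and the length. Scripts ran under Python 3.11.15 with scipy 1.17.1, pandas 2.3.3, matplotlib 3.10.9 and numpy 2.4.6.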

Additional observations from a re-analysis of the deposited data

How the results depend on the processing

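All 10 markers kept their direction and stayed short of the threshold under each of 7 alternatives, which are Benjamini-Hochberg over genes with a mean of at least 10 or 100, a t distribution with 4 degrees of freedom, the statistic divided by its SD of 0.944, Holm adjustment and 2 centrings. These alternatives could hardly have given another outcome. Only the 2 centrings alter a fold change, and the lowest unadjusted p of a marker in the deposited test was 0.157, for Sox9. The median of the markers was -0.06 without Sox9, an alternative added after seeing the data. The calls in the other lists depended on the test, with 11 genes past the threshold as deposited, 0 with the t distribution and 2 with Holm adjustment. With the t distribution no gene of the whole table could pass, so the 0 there says nothing about these lists. The median marker exceeded 94.2% of all genes per kilobase, 93.4% with the length of the longest transcript, 95.4% without division by length and 92.9% among genes with a mean of at least 10. The summed level in the macrophage libraries was 6.38 in CPM, and from 0.91 to 0.925 TPM on leaving out each library. Of the 10 markers 1 had an interval within 1.2-fold of no change against 9 within 1.5-fold, and 9 with a t quantile, both added after seeing the data. No paired analysis was possible because the OPC table holds no value per library. For the same reason no OPC library could be left out. Floors and intervals of reads cover counting error only.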
